A study of Mus musculus with 4 samples.

Results

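The vessels of the embryonic brain are lined by endothelial cells whose identity is set by a small group of transcription factors, and the data here cover 10 of their genes: the ETS factors Erg, Fli1, Ets1, Ets2 and Elk3, the SoxF factors Sox7, Sox17 and Sox18, and Tal1 and Lmo2. The genes were taken by symbol from a pair of deposited count tables merged by gene identifier, and all 10 were found among the 14100 genes that both tables list. RNA of brain endothelial cells from mouse embryos at embryonic day 18 was sequenced. There were 2 libraries (1 and 2) of the genotype given as STINGECKO, written STING ECKO here and read as an endothelial knockout of the DNA-sensing adaptor STING, and 2 of wild type (WT 3 and 5), all labelled C57BL/6 and with no treatment named. The design text of the study speaks of triplicates, and the 2 libraries per genotype were those analysed here. The recombinase driver, the deleted part of the gene, the way in which endothelial cells were collected and the number of animals behind a library are not stated in the labels, so p-values reflect only how far these libraries spread, which may be technical.

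ETS proteins bind DNA at a short GGAA core through a domain that all family members share, and many endothelial promoters and enhancers carry such sites. Erg and Fli1 are close relatives that keep endothelial genes such as those of junction proteins switched on, and Elk3 belongs to the ternary complex factors, which act with serum response factor and can repress. The SoxF proteins bind through an HMG box, act downstream of VEGF signals, and take part in arterial identity and vessel stability. Sox17 is also a factor of Wnt-dependent barrier formation in brain vessels. Tal1 is a basic helix-loop-helix factor that pairs with E proteins, and Lmo2 is a LIM-only protein that bridges Tal1 and GATA factors in one complex. That complex is needed for blood formation and for vessel remodelling.

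Total reads came to 18610298 in STING ECKO 1 and 22169261 in STING ECKO 2, against 21472677 in WT 3 and 20591981 in WT 5. Levels are given as CPM, counts per library size, the sizes being scaled by TMM, a method that sets most genes equal between libraries. Tmem173, which encodes STING, was at 3.65 and 8.32 CPM in STING ECKO, against 4.48 and 6.27 CPM in WT, so it did not separate the labels; which exons its reads came from is not in the tables. STING ECKO 1 had 3623 reads of the Y-linked gene Ddx3y and 0 of Xist, while the other libraries had 876 to 3374 reads of Xist, so sex differs between the STING ECKO libraries and enters the genotype comparison. STING ECKO 2 had 0 reads for 13.2% of the 14100 genes, against 2.39% to 5.25% in the other libraries. Endothelial markers were high in the 4 libraries, with 12 genes summing to 29107 and 27710 CPM in STING ECKO, against 28229 and 27928 CPM in WT. That sum is mostly Cldn5 and Slc2a1, and in STING ECKO 2 Cldn5 was the highest of the 4 libraries and Slc2a1 the lowest. The 8 pericyte markers summed to 10082 and 10480 CPM in STING ECKO, against 8217 and 7604 CPM in WT, without overlap. That sum is mostly Rgs5, at 6849 and 7225 CPM in STING ECKO, against 5591 and 4876 CPM in WT. Singly, 4 of the 8 were higher without overlap, where 15.4% of all tested genes were. Cspg4 was lower, at 83.8 and 152 CPM in STING ECKO, against 155 and 181 CPM in WT, and the rest overlapped. The part of the pericyte markers in the results was not tested.

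Upstream sequences from RefSeq (GRCm38.p6) were used for Erg, Elk3 and Tal1; those of Ets2, whose window lies within its own exons in GENCODE, and of Fli1, Ets1, Sox7, Sox17, Sox18 and Lmo2 were not used here. The 250 bases before the annotated start were searched on both strands for short strings known from these factor families. For the ETS core the string CCGGAA was used, which 12.03% of 32851 such windows hold. A second ETS string, CAGGAA, is found in 25.7% of the windows. As a GATA-type site, relevant to complexes of Tal1 and Lmo2, the search took AGATAA, present in 9.99%. As a Sox-type site it took AACAAT, present in 9.42%. The windows below are those of these genes in which a string was found, and capitals mark the matches, read on the strand of the gene.
Erg, most downstream of its 3 starts, chr16:95459349-95459598, minus strand: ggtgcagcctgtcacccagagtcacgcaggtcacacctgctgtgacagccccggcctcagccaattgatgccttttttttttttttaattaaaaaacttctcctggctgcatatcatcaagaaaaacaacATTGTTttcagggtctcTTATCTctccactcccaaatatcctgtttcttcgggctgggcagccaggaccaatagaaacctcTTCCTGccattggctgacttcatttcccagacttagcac
Elk3, chr10:93311160-93311409, minus strand: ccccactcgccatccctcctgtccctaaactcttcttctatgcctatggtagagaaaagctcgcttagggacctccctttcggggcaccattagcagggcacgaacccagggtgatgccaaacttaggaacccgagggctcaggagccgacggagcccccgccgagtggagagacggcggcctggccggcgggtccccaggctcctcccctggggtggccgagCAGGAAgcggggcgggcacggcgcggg
Tal1, upstream one of its 2 starts, chr4:115056176-115056425, plus strand: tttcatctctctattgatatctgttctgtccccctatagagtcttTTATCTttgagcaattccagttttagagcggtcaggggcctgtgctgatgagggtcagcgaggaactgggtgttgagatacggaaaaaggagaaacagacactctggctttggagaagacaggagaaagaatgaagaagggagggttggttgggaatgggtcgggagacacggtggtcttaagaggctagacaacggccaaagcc
The Erg window holds the Sox-type string at 120 bases before the start, the GATA-type string at 103 and the second ETS string at 39, each on the reverse strand and so printed as its reverse complement. The Elk3 window holds the second ETS string at 27 bases before the start on the forward strand. The Tal1 window holds the GATA-type string at 205 on the reverse strand. The windows of the other Erg and Tal1 starts held none of the strings. A match describes letters only, and binding was not measured.

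The ETS genes Fli1 and Ets1, and likewise Erg and Ets2, lie head to head. Fli1 (ENSMUSG00000016087, chromosome 9, 32422204 to 32542861, minus strand) and Ets1 (ENSMUSG00000032035, chromosome 9, 32636221 to 32757820, plus strand) are 93.4 kilobases apart, with 0 protein-coding genes between them. Erg (ENSMUSG00000040732, chromosome 16, 95359169 to 95586593, minus strand) and Ets2 (ENSMUSG00000022895, chromosome 16, 95702075 to 95721051, plus strand) are 115 kilobases apart, again with 0 protein-coding genes between them. Shared sequence between the relatives was short. The longest identical run between the longest coding transcripts was 22 bases for Erg and Fli1 and 29 bases for Sox17 and Sox18, the highest among the ETS pairs and among the SoxF pairs.

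Ordered by CPM per kilobase of exon (RPKM), which allows levels of different genes to be compared, Sox18 was the highest of the 10 and Tal1 the lowest. The length is that of all annotated exons of a gene. It is 8476 bases for Ets1 and 4772 for Sox17, whose longest coding transcripts have 5080 and 3242 bases. For Sox18 both lengths are 1620 bases. The order, and the family shares below, rest on this choice, and transcript lengths were not tried. Sox18 averaged 372 ± 68.5 RPKM over the libraries (SD, n = 4), higher than 99.2% of tested genes. Ets1 followed at 159 ± 16.8 RPKM, then Sox7 at 115 ± 38.4, Fli1 at 105 ± 12.9, Sox17 at 88.2 ± 22.9 and Lmo2 at 66.0 ± 13.2 RPKM. From Ets1 down to Elk3 each gene's range over the libraries overlapped that of the next, so neighbours there were not separated beyond their spread, although Lmo2 was above Elk3 within each of the 4 libraries. Elk3 was at 45.7 ± 8.98 RPKM, Erg at 19.97 ± 3.91, Ets2 at 18.8 ± 6.44 and Tal1 at 2.41 ± 1.86 RPKM. The ranges of Sox18 and Ets1, of Elk3 and Erg, and of Ets2 and Tal1 did not overlap, while those of Erg and Ets2 did. Erg was below its relative Fli1 in every library.

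**Figure D1:**
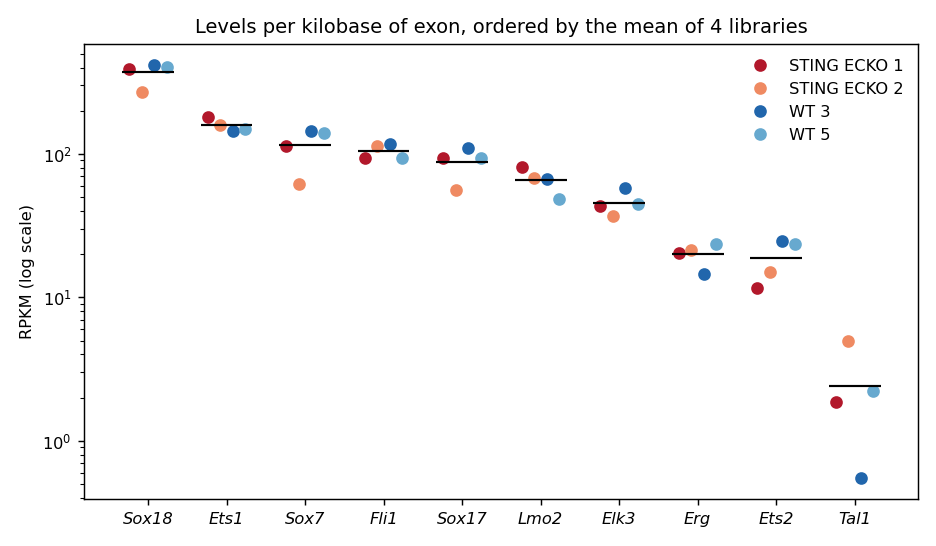
Level of each gene per kilobase of exon (RPKM, log axis), ordered by the mean of the 4 libraries (black line), with 1 point per library, STING ECKO left of WT. Sox18 stands above the rest in every library, and Tal1, at 2.41 RPKM on average, below the rest.

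None of the 10 genes passed the genotype test. Under the edgeR quasi-likelihood model with p-values adjusted by the Benjamini-Hochberg method, 0 of 13365 genes passed an adjusted p of 0.05 (percent called: 0), and all 10 genes passed the filter on low counts and entered the test. At an unadjusted p under 0.05 there was 1 of the 10, Ets2, where the share of all tested genes was 4.80%. DESeq2 called 0 of the 10 and 0.753% of the genes to which it gave an adjusted p. Median log2 fold change was -0.18 over the 10 genes and -0.03 over all tested genes. Over the 4069 tested genes with a mean of at least 50 CPM, a level that Tal1 alone of the 10 did not reach, it was 0.05. Of the 10, 4 had both STING ECKO libraries below both WT libraries (Ets2, Elk3, Sox7 and Sox18), where 19.0% of all tested genes did. Both STING ECKO libraries were above both WT libraries for 2 (Ets1 and Lmo2), where 15.4% of all tested genes did. In either direction that made 6 of 10, against 34.4% of all tested genes. With upper quartile factors or library totals alone Sox17 joined the lower genes and Lmo2 left the higher ones.

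**Figure D2:**
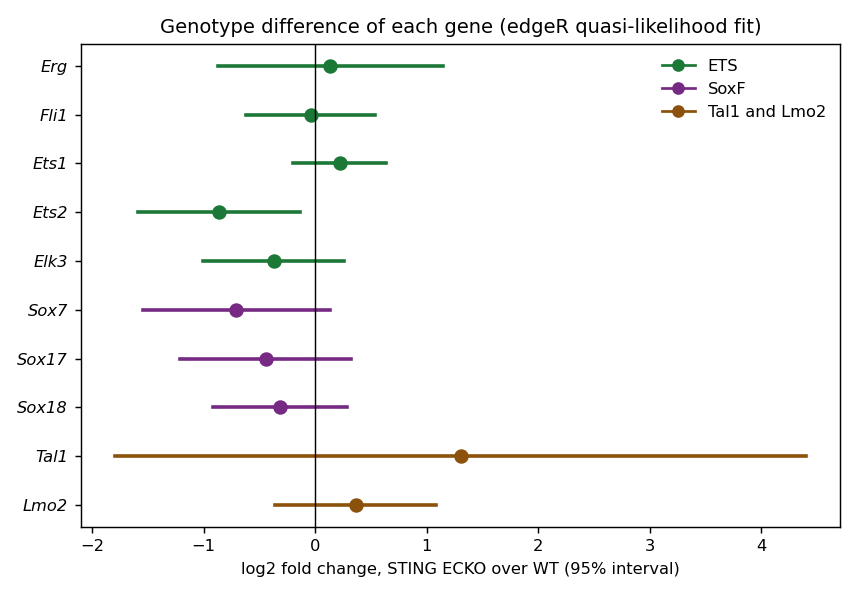
Log2 fold change of STING ECKO over WT for each gene (points) with its 95% interval (lines) from the edgeR quasi-likelihood fit over all 4 libraries. The interval of Ets2 is the one that leaves out 0, and that of Tal1, with the fewest reads, is the widest.

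The 3 SoxF genes had lower means in STING ECKO, with the lowest values in STING ECKO 2, and 0 of 3 passed the test. Sox7 (ENSMUSG00000063060, chromosome 14, 63943674 to 63950732, plus strand), which acts with its relatives in arterial specification, was at 374 and 202 CPM in STING ECKO, against 480 and 462 CPM in WT. The genotypes did not overlap, and the WT libraries lay close together while the STING ECKO libraries differed 1.85-fold. Its mean was 288 ± 121 CPM in STING ECKO and 471 ± 12.7 CPM in WT (SD, n = 2 each). That gave a log2 fold change of -0.71 (SE 0.33, 95% interval -1.55 to 0.13; edgeR adjusted p = 0.9998). The edgeR adjusted p was also 0.9998 for each of the 10 genes described here except Ets2.

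Sox17 (ENSMUSG00000025902, chromosome 1, 4490931 to 4497354, minus strand) was at 447 and 266 CPM in STING ECKO, against 525 and 445 CPM in WT. STING ECKO 1 lay just above WT 5, so the genotypes overlapped. For the genotype difference, log2 fold change was -0.44 (SE 0.30, 95% interval -1.21 to 0.32). The opposite-strand transcript Gm37587 covers 804 of its exon bases (16.8%), and since strand settings are not given, reads there cannot be assigned to a strand.

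Sox18 (ENSMUSG00000046470, chromosome 2, 181669836 to 181671640, minus strand), mutated in the ragged mouse with its vascular and lymphatic defects, was at 636 and 439 CPM in STING ECKO, against 679 and 658 CPM in WT. Both STING ECKO libraries were below both WT libraries, the first of them by little. Log2 fold change came to -0.31 (SE 0.24, 95% interval -0.92 to 0.29). All 3 SoxF genes kept a negative log2 fold change under each of 13 alternatives. Without STING ECKO 2 the values were -0.32 for Sox7, -0.11 for Sox17 and -0.06 for Sox18. Without STING ECKO 1 they were -1.22, -0.86 and -0.61. The size of the difference thus rested on STING ECKO 2, in which 0 reads were also most frequent over all genes. Whether that bears on the SoxF genes was not tested. The median over all tested genes also moved, to -0.20 without STING ECKO 1 and -0.04 without STING ECKO 2. STING ECKO 1 is the library with Ddx3y reads and 0 reads of Xist, so library and sex cannot be told apart here. In bulk samples, fewer cells of a type and less RNA per cell cannot be told apart. Of the 12 endothelial markers 5 were lowest and 2 highest in STING ECKO 2, and their part in the SoxF values was not tested. The share of all tested genes lowest or highest in STING ECKO 2 was not counted.

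**Figure D3:**
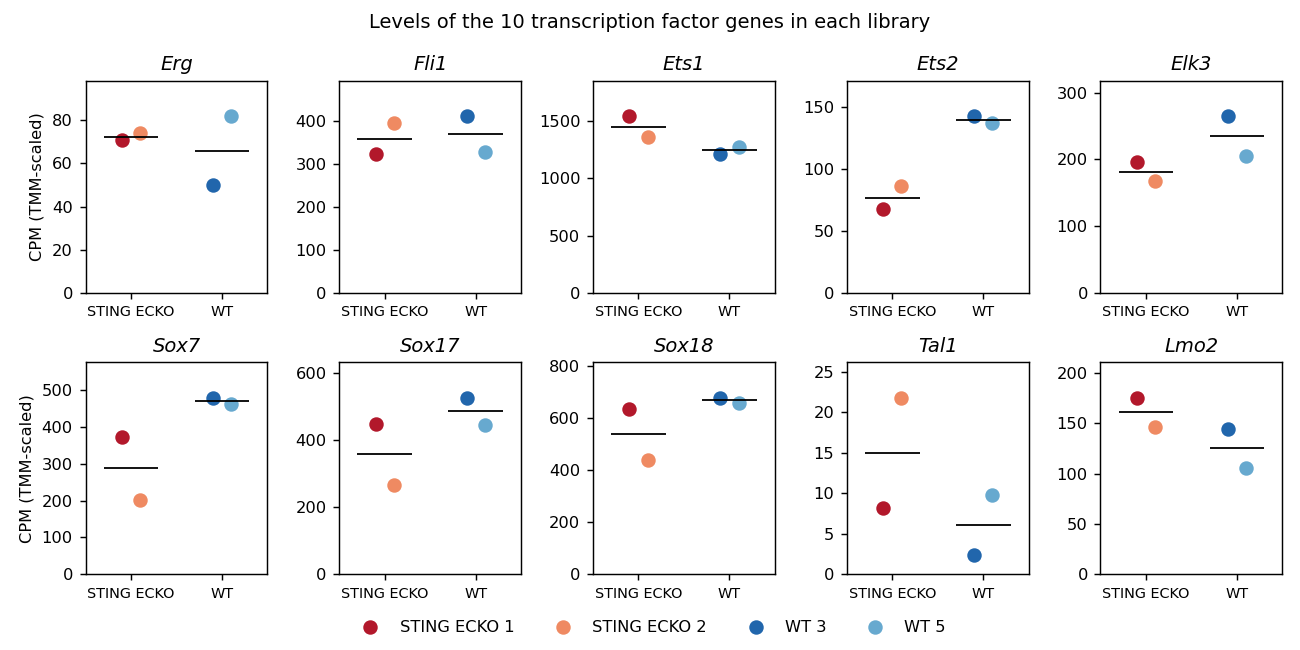
CPM of the 10 genes in each library (points) with the mean per genotype (lines), STING ECKO left of WT, each axis starting at 0. Ets2, Elk3, Sox7 and Sox18 lie lower in both STING ECKO libraries than in both WT libraries, and STING ECKO 2 is the lowest of the 4 libraries for each SoxF gene.

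Among the 5 ETS genes, of which 0 passed the test, Ets2 had the log2 fold change farthest from 0. Ets2, a target and effector of Ras and MAP kinase signalling, was at 67.6 and 86.3 CPM in STING ECKO, against 143 and 137 CPM in WT. The gap between the genotypes was wider than the spread within either. Its mean was 77.0 ± 13.2 CPM in STING ECKO and 140 ± 4.06 CPM in WT (SD, n = 2 each), 45.0% lower. The log2 fold change was -0.86 (SE 0.29, 95% interval -1.59 to -0.13), with an unadjusted p of 0.0285 and an edgeR adjusted p of 0.977. Leaving out 1 library gave -0.70 (STING ECKO 1), -1.04 (STING ECKO 2), -0.83 (WT 3) and -0.88 (WT 5). By the unadjusted p it ranked 360th of 13365 genes.

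Elk3 (ENSMUSG00000008398, chromosome 10, 93247414 to 93311135, minus strand) was at 196 and 167 CPM in STING ECKO, against 264 and 205 CPM in WT. The genotypes did not overlap, but STING ECKO 1 and WT 5 were close. For the genotype difference, log2 fold change was -0.37 (SE 0.25, 95% interval -1.002 to 0.26). The opposite-strand gene Cdk17 shares 316 of its exon bases (6.95%) and was itself at 2542 and 1549 reads in STING ECKO, against 1252 and 1315 reads in WT.

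Ets1, a factor of angiogenic endothelium and of lymphocytes, was at 1542 and 1357 CPM in STING ECKO, against 1216 and 1273 CPM in WT. Both STING ECKO libraries were the higher ones, by a margin below the difference between them. Log2 fold change came to 0.22 (SE 0.16, 95% interval -0.19 to 0.64). Lymphocyte markers were close to 0, with the listed genes of that marker list summing to 3.49 and 0 CPM in STING ECKO, against 10.3 and 9.26 CPM in WT.

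Erg was at 71.0 and 73.9 CPM in STING ECKO, against 50.1 and 81.8 CPM in WT. The STING ECKO libraries lay between the WT ones. The log2 fold change was 0.14 (SE 0.40, 95% interval -0.87 to 1.14), and it was -0.17 without WT 3. Fli1 was at 325 and 395 CPM in STING ECKO, against 412 and 329 CPM in WT. The genotypes overlapped, with STING ECKO 1 close to WT 5 and STING ECKO 2 close to WT 3. For the genotype difference, log2 fold change was -0.04 (SE 0.23, 95% interval -0.62 to 0.53), and its sign turned without STING ECKO 1 (0.10) or without WT 3 (0.13). Side by side for the neighbouring loci, the log2 fold change was 0.14 for Erg and -0.86 for Ets2, and -0.04 for Fli1 and 0.22 for Ets1; these contrasts were not tested.

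Tal1 and Lmo2 had positive log2 fold changes, and neither passed the test. Tal1 (ENSMUSG00000028717, chromosome 4, 115056426 to 115071755, plus strand) had 150 and 477 reads in STING ECKO, against 52 and 202 reads in WT. That was 8.18 and 21.8 CPM in STING ECKO, with exact Poisson intervals (95%, counting error only) of 6.92 to 9.59 and 19.9 to 23.9 CPM. In WT it was 2.40 and 9.74 CPM, with intervals of 1.80 to 3.15 and 8.45 to 11.2 CPM. STING ECKO 1 lay below WT 5, so the genotypes overlapped, and libraries of one genotype differed 2.67-fold in STING ECKO and 4.05-fold in WT, with intervals that do not overlap. Log2 fold change came to 1.30 (SE 1.22, 95% interval -1.79 to 4.40).

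Lmo2 (ENSMUSG00000032698, chromosome 2, 103957986 to 103981878, plus strand) was at 175 and 146 CPM in STING ECKO, against 145 and 106 CPM in WT. STING ECKO 2 and WT 3 were nearly equal. The log2 fold change was 0.36 (SE 0.28, 95% interval -0.36 to 1.09). Blood cells also use both genes. Itga2b, the platelet integrin, picked out here because of its values, was at 22.1 and 40.2 CPM in STING ECKO, against 6.43 and 5.02 CPM in WT. The 4 megakaryocyte and platelet markers used here summed to 32.8 and 54.6 CPM in STING ECKO, against 12.2 and 17.5 CPM in WT, with Gp9 at 0 in STING ECKO 2 and WT 3. Without Itga2b the sums overlapped, at 10.7 and 14.4 CPM in STING ECKO, against 5.73 and 12.5 CPM in WT. Pf4, a gene of platelets and of some macrophages, was at 13.3 and 16.2 CPM in STING ECKO, against 22.5 and 103 CPM in WT. The listed erythroid markers summed to 1231 and 2853 CPM in STING ECKO, against 2516 and 1314 CPM in WT, and Gata1 and Klf1 were at 0 or unlisted in STING ECKO 2, WT 3 and WT 5. Their part in the Tal1 and Lmo2 values was not tested.

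Each family had the same leading gene in the 4 libraries. Summed over the 5 ETS genes the level was 350 and 347 RPKM in STING ECKO, against 359 and 337 RPKM in WT. Ets1 made up 51.9% and 46.2% of it in STING ECKO, against 40.0% and 44.6% in WT, and Ets2 made up 3.34% and 4.31% in STING ECKO, against 6.88% and 7.04% in WT. Elk3 made up 12.3% and 10.6% in STING ECKO, against 16.2% and 13.4% in WT. For these 3 genes the genotypes did not overlap, while they did for Fli1, at 26.6% and 32.7% in STING ECKO, against 32.9% and 28.0% in WT, and for Erg, at 5.85% and 6.16% in STING ECKO, against 4.03% and 7.01% in WT. Summed over the 3 SoxF genes the level was 600 and 388 RPKM in STING ECKO, against 674 and 639 RPKM in WT. Sox18 held 65.5% and 69.8% of it in STING ECKO, against 62.1% and 63.5% in WT, while Sox7 held 18.9% and 15.8% in STING ECKO, against 21.6% and 21.9% in WT. Sox17 held 15.6% and 14.4% in STING ECKO, against 16.3% and 14.6% in WT, with overlap. With 2 libraries against 2 the two-sided exact permutation test cannot go below 0.333, which the shares of Ets1, Ets2, Elk3, Sox7 and Sox18 reached. Adjusted over the 8 shares tested, these exact p-values were 0.533. The shares of a family add to a fixed total and so are not independent: the Sox18 share was higher in STING ECKO while its level was lower.

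**Figure D4:**
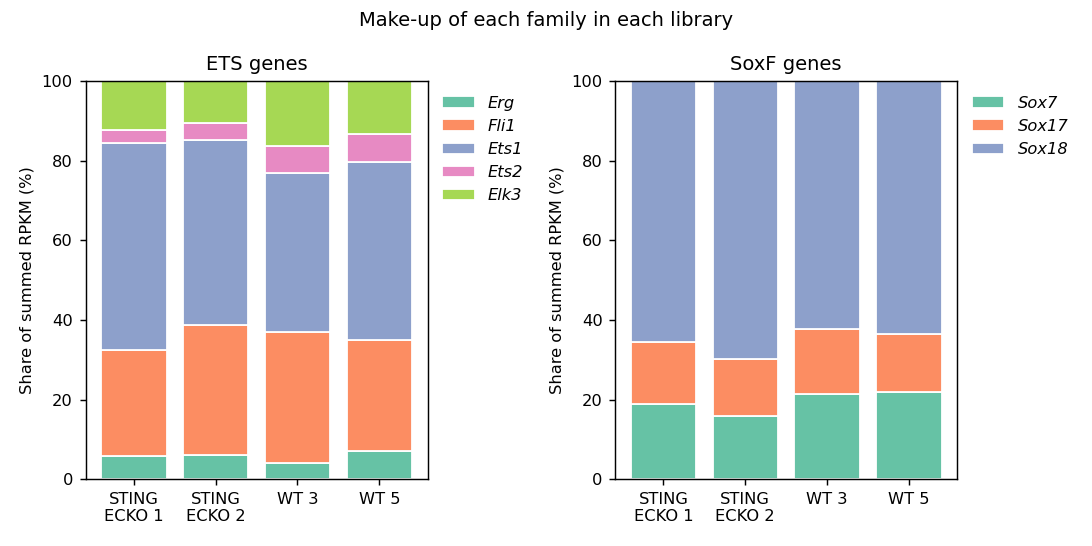
Share of each gene in the summed RPKM of the 5 ETS genes (left) and the 3 SoxF genes (right), 1 bar per library, STING ECKO left of WT. Ets1 is the largest ETS share in each library at 40.0% to 51.9%, and Sox18 the largest SoxF share at 62.1% to 69.8%.

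Taken 1 pair of libraries at a time, as the authors' deposited tables do, Tal1 was marked as higher in both, with log2 fold changes of 1.73 for STING ECKO 1 over WT 3 and 1.13 for STING ECKO 2 over WT 5. In the authors' deposited table of the first pair Ets2 was marked as lower (-1.11), and in that of the second pair it was not marked (-0.70). In the authors' deposited table of the second pair Sox7 was marked as lower (-1.22), and in that of the first it was not marked (-0.39). The other 7 genes were unmarked in the authors' deposited tables. Unmarked does not mean a high p-value there, since marked and unmarked genes of this group alike had small deposited p-values. Within the group the marks went with the size of the log2 fold change. Marked values were at least 1.13 or at most -1.11. Unmarked ones lay between -0.77 (Sox17, second pair) and 0.47 (Erg, first pair). The authors' deposited tables mark 40.9% and 52.1% of their genes and compare 1 library with 1 library.

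Of 21 other ETS genes 14 passed the filter, 0 passed the test, 5 had a log2 fold change above 0 and 9 below, and the median was -0.17, beside -0.03 over all tested genes. The highest by RPKM was Elk4, a ternary complex factor like Elk3, at 109 and 129 CPM in STING ECKO, against 95.4 and 91.8 CPM in WT. Etv6, a repressor, was at 71.0 and 61.3 CPM in STING ECKO, against 49.9 and 70.1 CPM in WT. Elf2 was at 98.1 and 49.7 CPM in STING ECKO, against 95.1 and 111.9 CPM in WT, and Elf1 at 36.8 and 72.1 CPM in STING ECKO, against 49.1 and 43.0 CPM in WT. Mean levels were 16.6 RPKM for Elk4 and at most 10.54 for the other ETS genes. These lay below the means of the 5 endothelial ETS genes, but the Elk4 range overlapped those of Erg and Ets2, and Elk4 was above Ets2 in both STING ECKO libraries. The lowest Ets2 library was at 11.70 RPKM. Etv6 reached 11.86 RPKM, Elf2 11.71 and Spi1 14.4, so their ranges also overlapped that of Ets2.

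Of 17 other Sox genes 9 passed the filter, 0 passed the test, 7 were above 0 and 2 below, with a median of 0.32. Sox11, a factor of immature neurons and other embryonic cells, was at 273 and 170 CPM in STING ECKO, against 365 and 245 CPM in WT. Sox9, a glial and cartilage factor, was at 77.7 and 69.9 CPM in STING ECKO, against 97.1 and 38.3 CPM in WT. Sox12 was at 17.2 and 75.0 CPM in STING ECKO, against 47.1 and 27.0 CPM in WT, and Sox13 at 23.9 and 50.6 CPM in STING ECKO, against 23.995 and 38.5 CPM in WT. Sox8, chosen after its values were seen as the 1 gene of this list at an unadjusted p under 0.05 in the edgeR quasi-likelihood test, had 54 reads in STING ECKO 1, 15 in STING ECKO 2 and 0 in WT 3 and WT 5. The 7 neuronal markers summed to 40.0 and 36.0 CPM in STING ECKO, against 109 and 80.4 CPM in WT. Among these 7, 4 were lower in STING ECKO without overlap, where 19.0% of all tested genes were, and the rest overlapped. Syn1, 1 of the lower ones, was at 0 in both STING ECKO libraries. Rbfox3 went the other way, with a log2 fold change of 1.05. The 8 astrocyte and radial glia markers summed to 66.5 and 10.2 CPM in STING ECKO, against 131 and 88.7 CPM in WT. Of these, 7 passed the filter, 4 of them lower without overlap and 0 higher. The part of the neuronal and glial markers in the Sox values was not tested.

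Of 17 partners and relatives of Tal1 and Lmo2, 15 passed the filter and 0 passed the test, with 8 above 0, 7 below and a median of 0.35. That median is the lowest of the 8 values above 0, and the other 7 were negative. Both STING ECKO libraries were above both WT libraries for 6 of the 15, where 15.4% of all tested genes were. They were below for 1, where 19.0% of all tested genes were. Ssbp4, of the family that stabilises LIM-domain-binding proteins, was at 202 and 233 CPM in STING ECKO, against 135 and 125 CPM in WT, a log2 fold change of 0.74 (SE 0.23, adjusted p = 0.977 in edgeR). Tcf3, an E protein that pairs with Tal1, was at 246 and 253 CPM in STING ECKO, against 224 and 154 CPM in WT. Lyl1, the closest relative of Tal1, was at 108 and 106 CPM in STING ECKO, against 64.3 and 103 CPM in WT. Tcf4, also an E protein, stood at 797 and 692 CPM in STING ECKO, against 885 and 610 CPM in WT. At 53.0 RPKM, the mean level of Lyl1 was above the 2.41 RPKM of Tal1.

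Of 25 endothelial genes that ETS or SoxF factors bind or drive, all 25 passed the filter and 0 passed the test. For the genotype difference, log2 fold change was above 0 for 9 and below for 16, with a median of -0.11 and a range from -0.74 to 0.37. Cldn5, the main claudin of brain endothelial tight junctions, had levels of 10487 and 12536 CPM in STING ECKO, against 10853 and 10529 CPM in WT. Esam, a junctional adhesion molecule, was at 1860 and 1832 CPM in STING ECKO, against 1713 and 1828 CPM in WT. Eng, a co-receptor of BMP signalling, was at 2223 and 1552 CPM in STING ECKO, against 2409 and 2637 CPM in WT. Apln, a tip cell ligand, was at 1164 and 578 CPM in STING ECKO, against 971 and 1117 CPM in WT. STING ECKO 2 was the lowest library for 13 of the 25, Eng and Apln among them, and the highest for 9, Cldn5 among them. How often it was lowest or highest over all tested genes was not counted, so these counts have no background. Both STING ECKO libraries were below both WT libraries for 6 of the 25, where 19.0% of all tested genes were. They were above for 4, where 15.4% of all tested genes were. At an unadjusted p under 0.05 in edgeR there was 1, Robo4, a guidance receptor of endothelium named after its values were seen, at 579 and 554 CPM in STING ECKO, against 914 and 820 CPM in WT.

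Of 13 other endothelial transcription factor genes 12 passed the filter and 0 passed the test, with 4 above 0, 8 below and a median of -0.07. Foxf2, a forkhead factor of brain vessels, was at 219 and 318 CPM in STING ECKO, against 294 and 297 CPM in WT. Epas1, a hypoxia-inducible factor, was at 494 and 487 CPM in STING ECKO, against 644 and 526 CPM in WT. Hey1, a Notch effector, was at 276 and 205 CPM in STING ECKO, against 249 and 235 CPM in WT, and Lef1, a Wnt effector, at 230 and 242 CPM in STING ECKO, against 226 and 231 CPM in WT. Lef1 was nearly level over the 4 libraries.

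**Figure D5:**
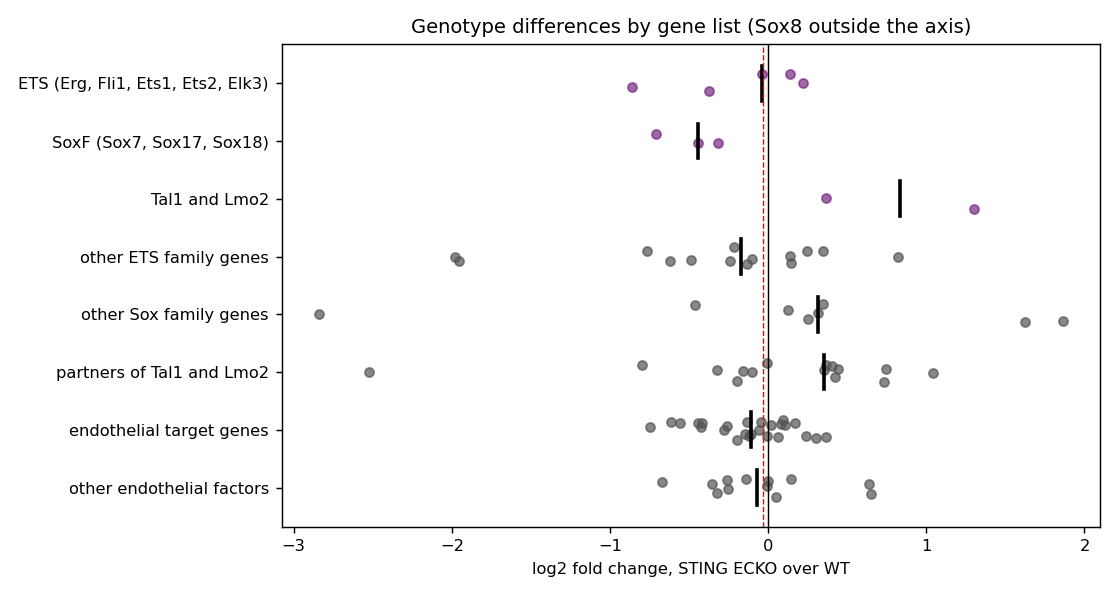
Log2 fold change of STING ECKO over WT for each tested gene of each list (points) with the list's median (black bar), and the median of all tested genes (dashed line, -0.03). The SoxF genes all lie below 0 and Tal1 and Lmo2 above; the vertical scatter is for display, and Sox8 falls outside the axis but counts in its median.

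Patterns over the libraries were compared by the root mean square difference of log2 CPM, each gene centred on its own mean of the 4 libraries. Sox17 and Sox18 were 0.12 apart, Elk3 and Sox18 0.16, and Sox7 and Sox17 0.17. Elk3, an ETS gene, thus lay about as near to Sox18 as Sox7 did to Sox17, but less near than Sox17. By rank of nearness Sox17 came 132nd for Sox7 and 215th for Sox18, behind many genes outside the family. Among the 6928 other genes of at least 20 CPM, the nearest to Sox18 was Cd151, a tetraspanin (0.02), the nearest to Sox17 was Csrp2 (0.04) and the nearest to Sox7 was Drosha (0.03). Lamc1, a laminin chain of the vascular basement membrane, was the nearest to Ets1 (0.01), Jmjd6 to Erg (0.03), Zc3h13 to Fli1 (0.02), the mitochondrial gene mt-Co1 to Elk3 (0.01) and Rcn1 to Lmo2 (0.03). Ets2 had 6 genes within 0.1, with Rfwd3 the nearest (0.05), while Fli1 had 127. These are patterns over 4 libraries only.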

How the data were processed

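Counts of reads per gene and 4 libraries came in 2 deposited tables, STING ECKO 1 with WT 3 and STING ECKO 2 with WT 5. Reads were aligned and counted by the authors with tools that include TopHat2 (2.0.12), Bowtie2 (2.2.3) and HTSeq (0.6.0), per the submitters' processing notes, which give the build as mm9; positions in the tables equal GENCODE M21 (GRCm38) for 88.7% of 14076 matched genes, so printed coordinates, copied from the tables, are GRCm38. The deposited normalized columns are CPM, reads scaled to the library total by the authors, with a 0 written as 0.5 read. The authors' deposited fold change is the ratio of those CPM, the deposited log2 column its log2, and the deposited p-values compare 1 library with 1 library. The 14100 genes of both tables were tested with edgeR 4.0.16 in R 4.3.3 (genes kept by filterByExpr at minimum count 10, TMM scaling, quasi-likelihood test, Benjamini-Hochberg adjustment over 13365 genes, threshold 0.05). SE is the log2 fold change over the square root of the F statistic, and intervals use its degrees of freedom. RPKM divide TMM-scaled CPM by the exon union length in GENCODE M21. Depth was 18610298 to 22169261 reads per library. Alternatives were limma-voom (limma 3.58.1), DESeq2 1.42.0, edgeR's likelihood ratio test, other filters and scalings, a block by table, and each library left out. Overlap counts under other scalings or with a library left out, and shares with a library left out, were chosen after seeing the data. From each list the 4 genes highest by RPKM were named, and for each of the 10 genes of at least 20 CPM the gene nearest in pattern. The 10 genes and the lists were chosen with earlier results of these data known. One megakaryocyte marker is not reported here.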

Additional observations from a re-analysis of the deposited data

Results flagged for a closer look

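Signals were found in genes that only the table of STING ECKO 1 and WT 3 lists and that did not enter the comparison. Gm37587, which overlaps Sox17 on the opposite strand, had 81 reads in STING ECKO 1 and 0 in WT 3. Spib, an ETS factor of lymphoid cells, had 178 reads in STING ECKO 1 and 0 in WT 3. Spic, an ETS factor of red pulp macrophages, had 9 reads in STING ECKO 1 and 0 in WT 3. In each of these cases the reads were in 1 of 2 STING ECKO libraries. Other ETS and Sox genes listed for 1 pair of libraries only went the other way. Fev had 0 reads in STING ECKO 1 and 8 in WT 3, and Sox1 had 3 and 20. Etv2 had 0 reads in STING ECKO 2 and 57 in WT 5.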

How the results depend on the processing

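The edgeR quasi-likelihood test called 0 genes (642 at an unadjusted p under 0.05), DESeq2 98 and the edgeR likelihood ratio test 33. Each of the other alternatives called 0 genes, and 0 of the 10 factor genes were called under any. The number of the 10 above WT without overlap was 1 instead of 2 with upper quartile factors and with library totals alone, and 2 to 4 when a library was left out; the number below was then 5 to 6. With a library left out 28.0% to 34.4% of all tested genes lay above and 32.2% to 43.4% below without overlap, against 15.4% and 19.0% with all libraries. The log2 fold change turned sign for Erg without WT 3 and for Fli1 without STING ECKO 1 or WT 3; the causes were not tested. With a library left out it ran from -0.17 to 0.54 for Erg and from -0.19 to 0.13 for Fli1 (0.10 without STING ECKO 1). For the other 8 genes no alternative turned it. The difference in share, STING ECKO minus WT in percentage points, turned for Sox17 on CPM not divided by length (0.21) and, with a library left out, for Sox17 (-1.30 to 0.43; 0.18 without STING ECKO 2), Fli1 (-3.86 to 2.25; 1.66 without WT 3) and Erg (-1.01 to 1.97). No paired analysis was possible because replicate numbers, which could pair libraries, are not shared by the genotypes. A fit that pairs libraries by deposited table instead (STING ECKO 1 with WT 3, STING ECKO 2 with WT 5), which no label says are matched, called 0 genes. With a library left out, the lone one of that genotype is assumed to vary like the other genotype. Depth is thinnest for Tal1, at 52 reads in WT 3.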

Other observations

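Some blood and developmental regulators of the lists, chosen after their values were seen, had STING ECKO 2 apart from the other libraries. Cbfa2t3, a corepressor that joins Tal1 complexes, was at 62.6 and 279 CPM in STING ECKO, against 61.8 and 104 CPM in WT. Sox4 was at 12.4 and 75.8 CPM in STING ECKO, against 9.29 and 14.9 CPM in WT. Mef2a was at 201 and 379 CPM in STING ECKO, against 183 and 190 CPM in WT. Gata2, the endothelial GATA factor, was at 103 and 21.9 CPM in STING ECKO, against 77.0 and 66.4 CPM in WT, and Hey2, a Notch effector, at 250 and 2 reads in STING ECKO, against 164 and 296 reads in WT. Spi1, a myeloid ETS factor, differed between libraries within both genotypes, at 5.61 and 38.7 CPM in STING ECKO, against 0.462 and 24.6 CPM in WT. The 12 microglia and macrophage markers, Spi1 among them, summed to 561 and 456 CPM in STING ECKO, against 555 and 1413 CPM in WT. Of these 12, 3 had a log2 fold change above 0, Spi1 among them, and 9 below.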
